A study of Mus musculus with 2 samples.

Results

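The insulin-like growth factor (IGF) genes described here are 10 mouse genes: the ligand gene Igf1, the receptor genes Igf1r and Insr, and the binding-protein genes Igfbp1 to Igfbp7. Their rows were found by Ensembl gene identifier, and all 10 were present among the 42462 annotated mouse genes of the tables. The tissue was the facial prominence of mouse embryos (strain B6NCrl) at embryonic day 12.5, and total RNA was sequenced in 2 libraries, with 120 embryos of both sexes pooled for replicate 1 and 88 for replicate 2. Each library received 10 ng of RNA, and synthetic spike-in RNAs were added. The embryos are described as healthy, no mutation or treatment is given, and the series has 1 group, so levels can be described within the tissue and no condition can be compared with another. Whole swellings were pooled, so a value is a mean over mesenchyme, epithelium, muscle, vessels, nerves and blood.

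IGF1 and IGF2 are secreted growth factors that act through the IGF1 receptor, a tyrosine kinase of the cell surface, and the insulin receptor is its closest relative. Most IGF outside cells is held by secreted binding proteins, which lengthen its life, keep it from the receptor or carry it to the matrix until a protease cuts them. Mice without Igf1r are small at birth and late to form bone, and the face of the midgestation embryo is a fast-growing tissue in which mesenchyme from the neural crest is preparing to make cartilage and bone.

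Levels are in TPM, transcripts scaled to a fixed library total, which divide the reads of a gene by its effective length and so allow genes to be compared. A value with ± is the mean and SD of both libraries (n = 2). The labels do not say that a replicate is anything beyond a separate pool, so the SD is the spread between 2 pools. No p-value was computed, since the series has 1 group and no second group to test it against. A ratio of 2 genes was taken within each library and so rests on 2 values. Replicate 1 held 27890681 expected counts and replicate 2 held 39969716. Markers of facial mesenchyme were present in both libraries. All 6 of them had 10 TPM or more in both, and their summed level was 761 TPM in replicate 1 and 760 TPM in replicate 2. The near-equal sums hold moves in both directions. Msx1 (336 and 325 TPM), Prrx1 and Pdgfra were lower in replicate 2, and Prrx2 (88.2 and 100.2 TPM), Twist1 and Alx4 were higher there.

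The sequences that follow are of stretches that the results name. Inclusion of the 36-base Insr exon among them could not be measured. The first set is of alternative pieces of RNA, read from GENCODE M21 transcripts on the build of the tables (GRCm38, mm10). In Insr, a 36-base coding exon (chr8:3181702-3181737, minus strand) is included in the B form of the receptor and skipped in the A form, which binds IGF2 more tightly. Capitals mark that exon, and 20 bases of each neighbouring exon are in lower case.
Insr with the exon: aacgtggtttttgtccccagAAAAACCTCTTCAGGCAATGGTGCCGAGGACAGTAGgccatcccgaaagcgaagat
Insr without it: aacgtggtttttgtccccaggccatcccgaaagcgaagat

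In the transcript Insr-202, exon 3 is not spliced to the next exon but runs on for 278 bases (chr8:3211101-3211378, minus strand). Capitals mark the first 30 of these bases, after the last 30 bases of exon 3.
Insr-202: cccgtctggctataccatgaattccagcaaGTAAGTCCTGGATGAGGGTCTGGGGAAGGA

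In the noncoding transcript Igfbp4-203, a 28-base first exon (chr11:99043597-99043624, plus strand) stands in place of the coding first exon. Capitals mark it, before 30 bases of the shared second exon.
Igfbp4-203: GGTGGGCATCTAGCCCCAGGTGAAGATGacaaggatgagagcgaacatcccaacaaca

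In Igf1, a 52-base coding exon (chr10:87915298-87915349, plus strand) gives the Eb form of the precursor where it is included, and the Ea form where it is skipped. Capitals mark it, between 20 bases of each neighbouring exon.
Igf1: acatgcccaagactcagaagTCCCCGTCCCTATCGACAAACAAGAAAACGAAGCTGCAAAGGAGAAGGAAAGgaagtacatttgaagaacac

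Of the 10 genes, 8 had 10 TPM or more in both libraries, and the other two, Igfbp1 and Igfbp6, were under 1 TPM in both. As background, 41.7% of 21474 protein-coding genes had at least 10 TPM in each library and 61.8% had at least 1 TPM. Igfbp4, Igfbp2 and Igfbp5 were at 100 TPM or more in both, a level reached by 7.39% of protein-coding genes. The median over the 10 genes was 46.7 TPM, beside 5.24 TPM over all protein-coding genes. The order of the mean levels was Igfbp4, Igfbp2, Igfbp5, Igfbp3, Igf1, Insr, Igf1r, Igfbp7, Igfbp6 and Igfbp1. In 7 of the 9 steps of that order the values of the 2 libraries did not overlap. They did for Insr beside Igf1r and for Igfbp6 beside Igfbp1, so those neighbours could not be put in order.

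**Figure D1:**
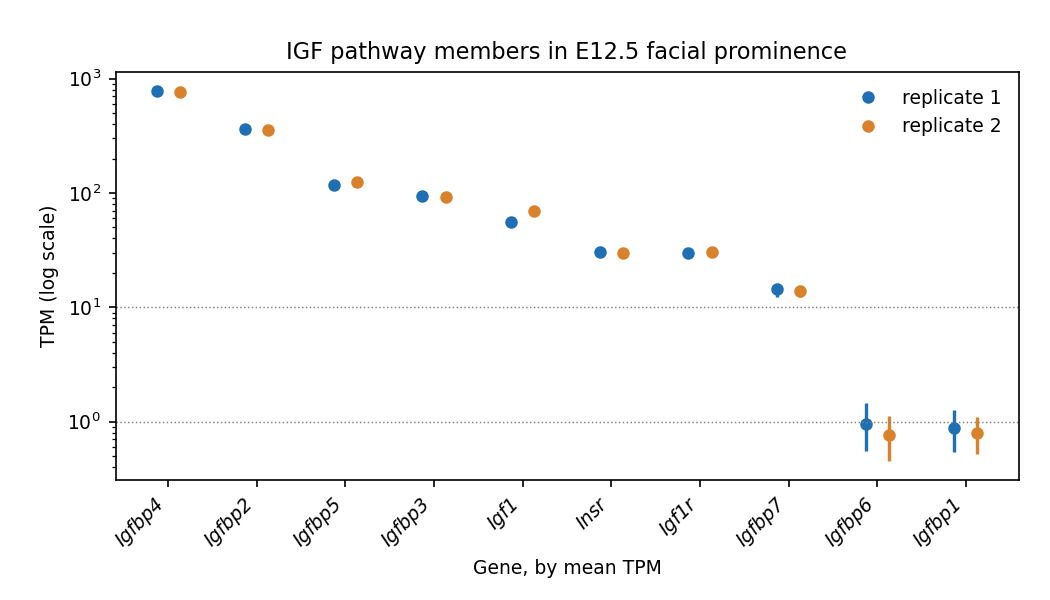
TPM of each of the 10 genes (log axis) in replicate 1 (blue) and replicate 2 (orange), in order of the mean. Points are the deposited TPM, vertical lines the deposited credibility interval of each library, and dotted lines stand at 1 and 10 TPM. A point can lie above its interval, as for Igfbp4 in replicate 1 (788 TPM, interval 751 to 786 TPM). Igfbp4 lies near 778 TPM, Insr and Igf1r overlap near 30 TPM, and Igfbp6 and Igfbp1 lie under 1 TPM with intervals that overlap.

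The ligand gene Igf1 lies on chromosome 10 (87858265 to 87937042, plus strand, ENSMUSG00000020053.14). It had 56.2 TPM in replicate 1 and 69.9 TPM in replicate 2, from 4548 and 8217 reads. Replicate 2 was the higher, and the deposited credibility intervals, 51.5 to 59.0 and 65.6 to 72.1 TPM, did not overlap. The log2 difference of replicate 2 over replicate 1, with a pseudocount of 1 TPM, was 0.31, the widest among the 10 genes. A difference at least that wide in either direction was seen in 3.1% of 9111 protein-coding genes with a mean of 10 TPM or more. Without a pseudocount, the higher value over the lower was 1.26 for Igfbp6, which had 17 and 19 reads, beside 1.24 for Igf1. The other IGF ligand gene, Igf2, an imprinted growth gene, had 592 TPM in replicate 1 and 572 TPM in replicate 2. Igf2 was thus 9.28-fold above Igf1 (log2 ratio 3.21 ± 0.26), and Igf1 made up 9.78 ± 1.58% of the summed TPM of both ligand genes. On coding transcripts the ratio was 5.76-fold (2.53 ± 0.25), with 361 ± 7.76 TPM for Igf2, and the share of Igf1 was 14.9 ± 2.22%.

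Skeletal muscle markers were also higher in replicate 2, and neuron markers were lower there. All 3 muscle markers (Actc1, Myog and Myod1) had their higher value in replicate 2, and their summed level was 301 TPM in that library and 255 TPM in replicate 1. All 3 neuron markers (Tubb3, Nefl and Stmn2) had their lower value in replicate 2, with sums of 282 TPM in that library and 377 TPM in replicate 1. The glia markers Fabp7 and Sox10 were lower in replicate 2 as well. Fabp7 had 124.8 TPM in that library and 162 TPM in replicate 1, and Sox10 had 16.4 and 17.6 TPM. Of 3 cartilage markers, Col2a1 and Acan were lower in replicate 2 and Sox9 was higher, and the list had 438 TPM there and 479 TPM in replicate 1. The 4 macrophage markers gave sums of 48.9 TPM in replicate 2 and 47.7 TPM in replicate 1. No marker of these lists was at 0. The part of these cells in the difference of Igf1 was not tested, and in bulk tissue more cells of a type and more RNA per cell cannot be told apart.

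All 8 transcripts of Igf1 in the tables encode protein, and 1 of them led. Igf1-202, with a last exon of several kilobases, held 60.1% of the gene's TPM in replicate 1 and 61.9% in replicate 2, or 33.8 and 43.3 TPM. Igf1-206 followed with 9.82 and 11.4 TPM, although its credibility intervals were wide (from 4.66 to 14.2 TPM for replicate 1). Igf1-208 was at 0 in both libraries.

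The gene starts from alternative leader exons that encode different beginnings of the signal peptide. Transcripts with the upstream leader held 67.6% of Igf1 TPM in replicate 1 and 70.8% in replicate 2, and those with the downstream leader held 32.4% and 29.2%. In reads not divided by length, the upstream leader held 93.1 ± 0.73%, since the long Igf1-202 transcript takes most of the reads. The mix at the other end was similar in both libraries. Transcripts that skip the 52-base exon shown above (the Ea form) held 69.1% of TPM in replicate 1 and 70.1% in replicate 2. Those that splice it on to the last exon (Igf1-203 and Igf1-206, the Eb form) held 23.4% and 23.7%. The rest, 7.48% and 6.17%, ended within an extended form of that exon.

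The receptor gene Igf1r, on chromosome 7 (67952827 to 68233668, plus strand, ENSMUSG00000005533.9), had 30.1 TPM in replicate 1 and 30.2 TPM in replicate 2. The pools differed by less for this gene than for any other of the 10, with a log2 difference of 0.0014. Its deposited value rests on a short gene model. The single Igf1r transcript in the tables is 4489 bases long and the same transcript in GENCODE M21 is 11409 bases long, so 6920 bases (60.7% of the longer model) lie outside the model to which reads were assigned. The coding part is 4107 bases and 382 bases of the tabled transcript lie outside it. The gene had 2311 reads in replicate 1 and 3281 in replicate 2, all assigned to that shorter model.

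Insr, on chromosome 8 (3122061 to 3279617, minus strand, ENSMUSG00000005534.9), had almost the same gene level. It stood at 30.7 TPM in replicate 1 and 30.1 TPM in replicate 2, from 1349 and 1865 reads. Igf1r and Insr could not be separated at the level of the gene, where the log2 ratio of Igf1r over Insr was -0.02 in replicate 1 and 0.0043 in replicate 2.

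The transcripts gave another picture. Most of the Insr value belonged to Insr-202, the retained-intron transcript whose sequence is shown above, which does not encode the receptor. It had 26.9 TPM in replicate 1 and 26.5 TPM in replicate 2, which is 87.7% and 87.9% of the gene. Insr-201, the coding transcript of 9355 bases, had 3.76 and 3.63 TPM, with credibility intervals of 3.32 to 3.96 and 3.29 to 3.81 TPM. With coding transcripts alone, Igf1r stood 8.16-fold above Insr (log2 ratio 3.03 ± 0.04).

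Insr-202 is told from the coding Insr-201 by a small stretch of RNA, while most of the 9355 bases of Insr-201 lie outside Insr-202. Insr-202 is 1675 bases long and shares 1397 of them, its exons 1 to 3, with Insr-201. Reads in the shared exons are divided by the quantifier, and the 278 bases beyond exon 3 are the only ones of Insr-202 that are not in the coding transcript. The read density was 442 reads per kilobase for Insr-202 and 65.1 for Insr-201 in replicate 1, and 617 and 88.9 in replicate 2. These densities are the assigned reads over length, so they restate the split and do not test it. What set this difference in density was not tested.

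The A and B forms of the insulin receptor could not be measured. The tables hold 2 Insr transcripts, and the coding one, Insr-201, lacks the 36-base exon. The M21 transcript with that exon, Insr-203, is among 3 Insr transcripts of M21 that the tables do not list. Insrr, the orphan receptor of the same family, was low, at 1.57 TPM in replicate 1 and 1.36 TPM in replicate 2. Insr was 20.8-fold above Insrr on gene levels (4.38 ± 0.13), and 2.75-fold above it on coding transcripts (1.46 ± 0.02).

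**Figure D2:**
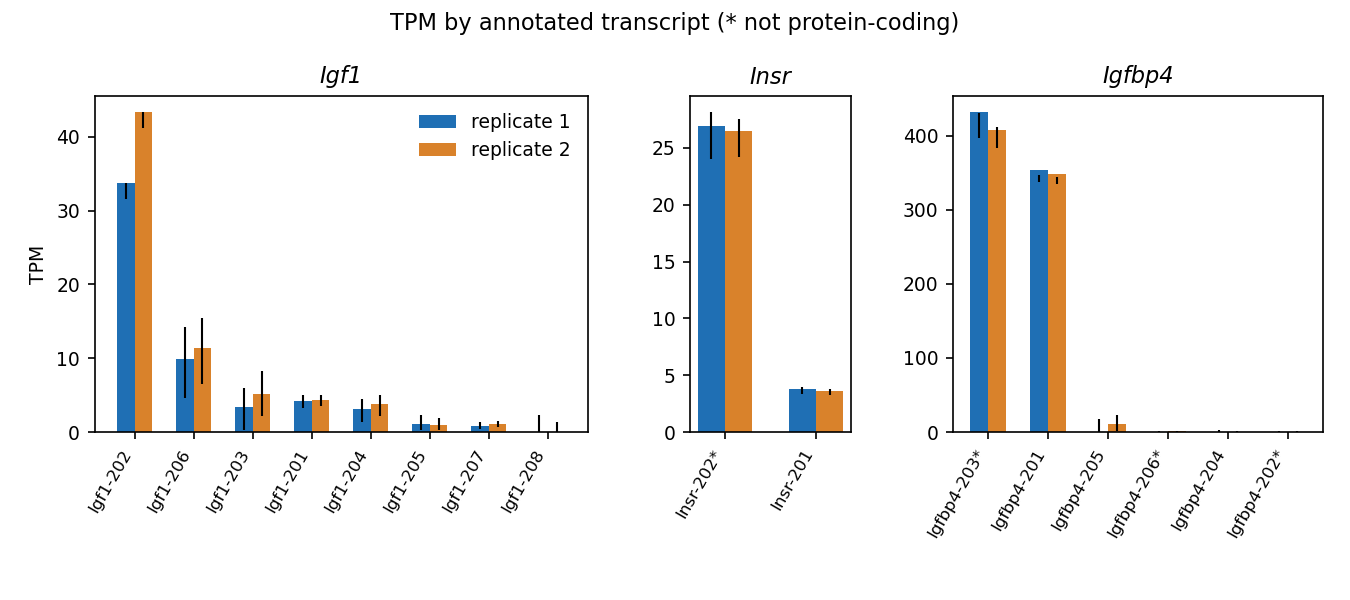
TPM of each annotated transcript of Igf1, Insr and Igfbp4 in replicate 1 (blue) and replicate 2 (orange), with the deposited credibility interval as a line. A bar can end above its interval, as for Igfbp4-201 in replicate 1 (354 TPM, interval 338 to 348 TPM). Stars mark transcripts that do not encode protein. For Insr the starred Insr-202 stands near 27 TPM beside under 4 TPM for the coding Insr-201, and for Igfbp4 the starred Igfbp4-203 stands above the coding Igfbp4-201.

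Igf2r, the scavenger receptor that clears IGF2, was close to Igf1r. It had 32.5 TPM in replicate 1 and 31.2 TPM in replicate 2, and its log2 ratio over Igf1r was 0.08 ± 0.04, which was not called. Igf1r stood below Igf1 (-1.06 ± 0.22), but the ratio was -0.90 in replicate 1 and -1.21 in replicate 2, so the call rests on replicate 2.

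Among the binding-protein genes, Igfbp4 was the highest. It lies on chromosome 11 (99041244 to 99054392, plus strand, ENSMUSG00000017493.8) and encodes a protein that holds IGF away from its receptor until the protease PAPP-A cuts it. It had 788 TPM in replicate 1 and 769 TPM in replicate 2, from 28297 and 39246 reads. On this gene level, which sums coding and noncoding transcripts, it ranked 113 among the 21474 protein-coding genes. A rank on coding transcripts alone was not computed. Igfbp4 was 6.43-fold above Igfbp5 (log2 ratio of Igfbp5 over Igfbp4 -2.69 ± 0.08) and 54.7-fold above Igfbp7 (5.77 ± 0.01). On coding transcripts these log2 ratios were -1.57 ± 0.04 for Igfbp5 over Igfbp4 and 4.65 ± 0.05 for Igfbp4 over Igfbp7, which is 25.1-fold.

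Here too the gene value was divided between a coding and a noncoding transcript. Igfbp4-203 had 432 TPM in replicate 1 and 408 TPM in replicate 2, or 54.9% and 53.1% of the gene. The coding Igfbp4-201 had 354 and 348 TPM. Of the 785 bases of Igfbp4-203, 757 are also in Igfbp4-201, and the 28-base exon shown above is the only stretch of its own. In reads the order was the other way round, with 23107 and 32186 reads for Igfbp4-201 and 5179 and 6933 for Igfbp4-203. Coding transcripts of Igfbp4 together had 357 ± 2.88 TPM, and 356.5 ± 4.2 TPM was the matching value for Igfbp2. Those values overlapped, so Igfbp4 stood above Igfbp2 on gene levels and could not be told from it on coding transcripts.

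**Figure D3:**
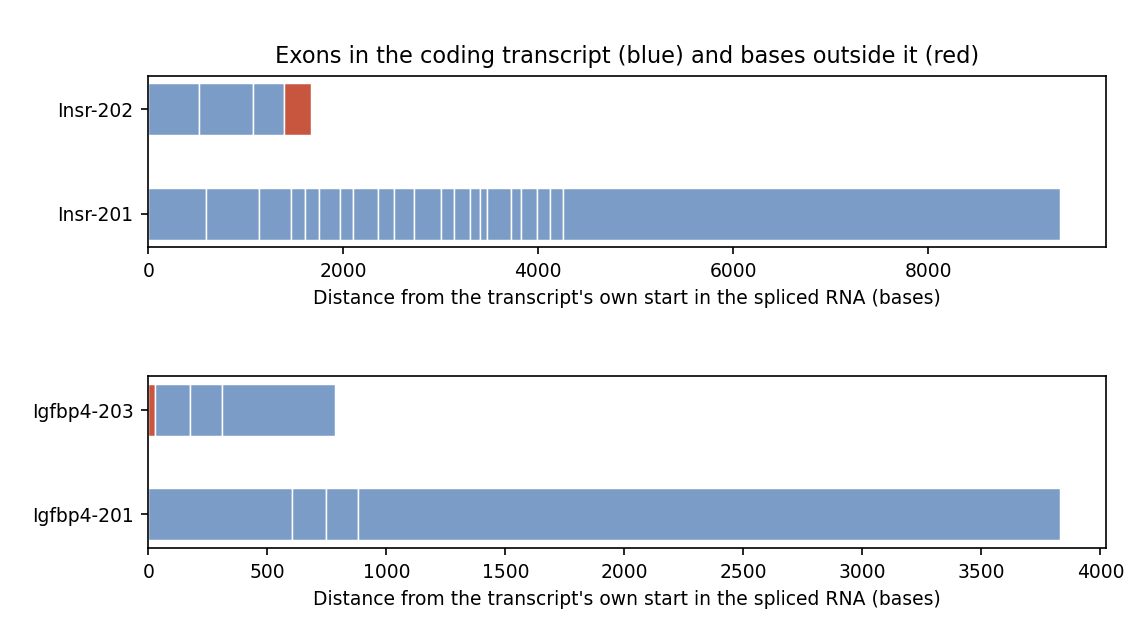
Spliced transcripts of Insr and Igfbp4 drawn to scale from their own start, with white lines between exons. Blue marks bases that lie in the coding transcript and red marks bases outside it. Only the last 278 bases of Insr-202 and the first 28 bases of Igfbp4-203 are red.

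A coding share under 50% in both libraries was found in 2 of the 7 genes with more than 1 transcript in the tables, Insr and Igfbp4. The same was found in 9.56% of 6557 protein-coding genes with a mean of 10 TPM or more and 2 or more annotated transcripts. In all 7, the same transcript led in both libraries with 50% or more of the gene's TPM, which held for 70.6% of those 6557 genes. In the other 5 genes the coding transcripts held from 99.2% to 100% of the TPM in each library.

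Igfbp2, on chromosome 1 (72824503 to 72852474, plus strand, ENSMUSG00000039323.14), encodes a binding protein that is abundant in embryos and prefers IGF2. It had 359 TPM in replicate 1 and 354 TPM in replicate 2, and 98.5% and 99.3% of that was the transcript Igfbp2-201. The other coding transcript, Igfbp2-202, which starts from a different first exon, had 5.32 and 2.20 TPM.

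Igfbp5 lies beside Igfbp2 on chromosome 1 (72857932 to 72874884, minus strand, ENSMUSG00000026185.8) and encodes a binding protein of mesenchyme, muscle and bone that attaches to the matrix. It had 118 TPM in replicate 1 and 124 TPM in replicate 2, and after Igf1 it had the widest relative gap among the 8 genes above 10 TPM (log2 difference 0.07). The pair are transcribed towards each other, with 5457 bases and no annotated gene between them. Igfbp5 was 2.95-fold below Igfbp2 (-1.56 ± 0.07). The sign depends on length, because the Igfbp5 transcript is about 6 kilobases and that of Igfbp2 about 1.3. In reads not divided by length, Igfbp5 was above Igfbp2 (0.73 on the log2 scale), and 18109 reads were assigned to Igfbp5 in replicate 2 beside 10575 for Igfbp2.

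Igfbp3 encodes the main carrier of IGF in adult blood. The gene, on chromosome 11 (7206086 to 7213923, minus strand, ENSMUSG00000020427.7), had 94.8 TPM in replicate 1 and 93.0 TPM in replicate 2. Igfbp5 was 1.29-fold above Igfbp3 (0.37 ± 0.07), under the threshold for a called pair, although the values of the libraries did not overlap.

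Igfbp1, a binding-protein gene of liver and decidua that insulin represses, faces Igfbp3 across 3539 bases that hold no annotated gene. It lies on chromosome 11 at 7197782 to 7202546 (plus strand, ENSMUSG00000020429.7). It had 0.88 TPM in replicate 1 and 0.79 TPM in replicate 2, from 22 and 28 reads. The exact 95% Poisson intervals of those counts are 13.8 to 33.3 and 18.6 to 40.5, and they cover counting error only. Igfbp3 was 113-fold above Igfbp1 (6.81 ± 0.09) and Igfbp2 428-fold above it (8.74 ± 0.09). In the order of the 10 genes, Igfbp3 was 4th. Its neighbour Igfbp1 was at the bottom together with Igfbp6, from which it could not be separated.

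Markers of hepatocytes and of decidua and placenta were read beside Igfbp1. Of 6 hepatocyte markers, 3 (Ttr, Afp and Apoa1) reached 1 TPM in both libraries, and 0 reached 10 TPM. Over all protein-coding genes, 61.8% and 41.7% did. The sum of the list was 10.8 TPM in replicate 1 and 10.4 TPM in replicate 2. Of 4 markers of decidua and placenta, Prl3d1 and Tpbpa were at 0 in both libraries. Prl8a2 had 0 and 0.1 TPM, Prl3b1 had 0.44 and 0.47 TPM, and the list summed to 0.44 and 0.57 TPM. The part of such cells in the Igfbp1 value was not tested.

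Igfbp6, whose protein prefers IGF2 over IGF1, was as low as Igfbp1. The gene, on chromosome 15 (102144362 to 102149511, plus strand, ENSMUSG00000023046.6), had 0.96 TPM in replicate 1 and 0.76 TPM in replicate 2, from 17 and 19 reads. Their Poisson intervals, 9.90 to 27.2 and 11.4 to 29.7 reads, are wide enough that the order of Igfbp6 and Igfbp1 could not be told at this depth. Igfbp5 was 142-fold above Igfbp6 (7.15 ± 0.29).

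Igfbp7 encodes a low-affinity relative that is known from blood vessels. It lies on chromosome 5 (77349240 to 77408041, minus strand, ENSMUSG00000036256.9) and had 14.5 TPM in replicate 1 and 14.0 TPM in replicate 2, from 259 and 353 reads. Its exons overlap 85 exon bases of Polr2b on the other strand, a gene with 63.3 and 65.2 TPM. Whether the libraries kept strand is not given in the sources used here. Both genes had whole-number counts in both libraries (4378 and 6276 reads for Polr2b), so neither carried a fraction of a shared read. How reads in that overlap were assigned was not tested. Endothelial markers, of which 3 of 4 had at least 10 TPM in each library, gave sums of 133.9 TPM in replicate 1 and 132.9 TPM in replicate 2.

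The binding-protein genes together had 1366 ± 15.1 TPM. Igfbp4 made up 57.0 ± 0.36% of that pool, Igfbp2 26.1 ± 0.0023%, Igfbp5 8.86 ± 0.41%, Igfbp3 6.87 ± 0.02% and Igfbp7 1.04 ± 0.02%. Igfbp1 and Igfbp6 each held under 0.1%. On coding transcripts the pool was 943 ± 1.09 TPM, and Igfbp4 (37.9 ± 0.26%) and Igfbp2 (37.8 ± 0.49%) held nearly equal shares. The pool stood at 2.12 times the summed TPM of Igf1 and Igf2 in replicate 1, at 2.11 times in replicate 2 and at 2.23 ± 0.0077 times with coding transcripts of both the binding proteins and the ligands. These are ratios of RNA, not of protein.

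**Figure D4:**
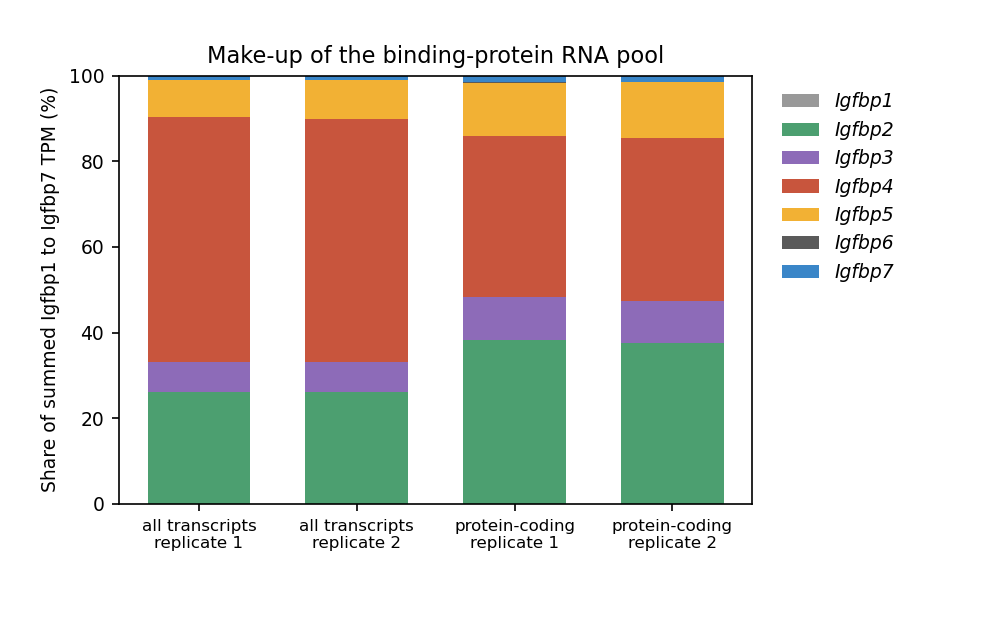
Share of each binding-protein gene in the summed TPM of Igfbp1 to Igfbp7 (percent, stacked to 100), over all transcripts at the left and over protein-coding transcripts at the right, by library. Igfbp4 takes 57.0% of the pool over all transcripts and 37.9% over coding ones, while Igfbp1 and Igfbp6 are too small to see.

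Between the libraries the 10 genes differed little. None of the 10 passed a log2 difference of 1 in either direction, and none passed 0.5. Among 13490 protein-coding genes with a mean of 1 TPM or more, 0.252% passed 1 and 2.38% passed 0.5, and among the 9111 with a mean of 10 TPM or more, 0.121% and 0.768% did. The median size of the difference was 0.04 over the 10 genes and 0.07 over the 9111 protein-coding genes at 10 TPM or more. Of the 10, 7 were higher in replicate 1 and 3 (Igf1, Igf1r and Igfbp5) in replicate 2. Every one of the 10 had a whole-number count in both libraries at the 2 decimals deposited, so none of them carried a fraction of a read shared with another gene.

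Promoter windows were taken from RefSeq (GRCm38.p6), each reaching from upstream of a RefSeq start to shortly past it. Both strands were searched for TATAAA (the TATA box), GGGCGG (the GC box) and GCCNNNGGC (a form bound by AP-2 factors). CAAAACA (from the insulin response element) and CACGTG (the E-box) were sought too. There were 10 windows for 9 of the genes. The windows of Igfbp4, the member with the most RNA, of Igfbp5 and of the low Igfbp1 are shown, as each held a different one of these motifs, marked in capitals.
Igfbp4 (chr11:99040994-99041293, plus strand): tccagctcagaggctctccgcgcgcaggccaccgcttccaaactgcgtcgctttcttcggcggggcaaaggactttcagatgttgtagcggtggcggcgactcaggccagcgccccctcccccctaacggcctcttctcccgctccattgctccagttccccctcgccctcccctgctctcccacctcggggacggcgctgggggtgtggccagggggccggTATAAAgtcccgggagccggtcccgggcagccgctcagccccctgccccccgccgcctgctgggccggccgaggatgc
Igfbp5 (chr1:72874816-72875115, minus strand): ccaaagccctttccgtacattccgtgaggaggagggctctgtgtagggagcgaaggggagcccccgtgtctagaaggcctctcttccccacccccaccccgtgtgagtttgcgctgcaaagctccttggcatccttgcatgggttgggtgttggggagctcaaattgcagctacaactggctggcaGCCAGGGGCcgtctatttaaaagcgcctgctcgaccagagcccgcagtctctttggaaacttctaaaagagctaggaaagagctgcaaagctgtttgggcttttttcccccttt
Igfbp1 (chr11:7197537-7197836, plus strand): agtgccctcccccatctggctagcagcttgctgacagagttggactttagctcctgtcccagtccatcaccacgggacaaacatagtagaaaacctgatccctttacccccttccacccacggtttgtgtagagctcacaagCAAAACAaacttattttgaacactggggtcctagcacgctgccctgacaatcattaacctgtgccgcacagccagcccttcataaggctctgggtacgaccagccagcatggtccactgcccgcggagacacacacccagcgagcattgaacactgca

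The TATAAA of Igfbp4 begins 28 bases before the RefSeq start, and 13.6% of 32851 promoter windows of the same length hold that motif. Igfbp6 also held it, 148 bases before its start. The GCCNNNGGC match of Igfbp5 begins 64 bases before the start, in a set where 16.6% of windows hold one. The CAAAACA of Igfbp1 begins 108 bases before the start, and 6.28% of windows hold it. GC boxes, found in 35.7% of windows, were present in 3 of the genes, with 4 matches in Igfbp7, 3 in Igfbp2 and 2 in Igf1r. The E-box, found in 7.15% of windows, was present in that of Igfbp2, and none of the motifs searched was in those of Igf1 and Igfbp3. The Igf1 window (chr10:87860861-87861160) lies inside the gene, which starts at 87858265 in GENCODE M21, so bases before that start were not searched. CpG dinucleotides numbered 48 in the window of Igf1r, 37 in that of Igfbp3, 33 in that of Igfbp7 and 27 in that of Igfbp4. They numbered 18 and 14 in the windows of Igfbp2 and 10 in that of Igfbp5. Igfbp1 and Igfbp6 had 8 each and Igf1 had 6, where the median over all windows was 7. A match to letters describes these windows and does not show that a factor binds there.

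Of 18 gene pairs, 13 had a called ratio, that is a mean log2 ratio beyond 1 in either direction with the same sign in both libraries. The share of called ratios over all pairs of genes was not computed, so the count describes these 18 pairs only. Grb10, an imprinted adaptor that dampens signalling from the IGF1 and insulin receptors, was 16.7-fold above Igf1r (4.06 ± 0.09). Igf1r was 2.54-fold above Irs1, a docking protein of the receptor (1.34 ± 0.04), although the log2 ratio was 0.30 in reads not divided by length. Igfbp4 was 519-fold above its protease gene Pappa (9.02 ± 0.06), or 238-fold on coding transcripts. Pappa had 1.56 TPM in replicate 1 and 1.44 TPM in replicate 2, and Pappa over Pappa2 was not called (-0.36 ± 0.10). Igfbpl1, a relative of the binding proteins, was 5.29-fold below Igfbp7 (-2.40 ± 0.31). Igfbp5 over Igf1 was not called (0.95 ± 0.17), but it was 1.07 in replicate 1 alone.

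**Figure D5:**
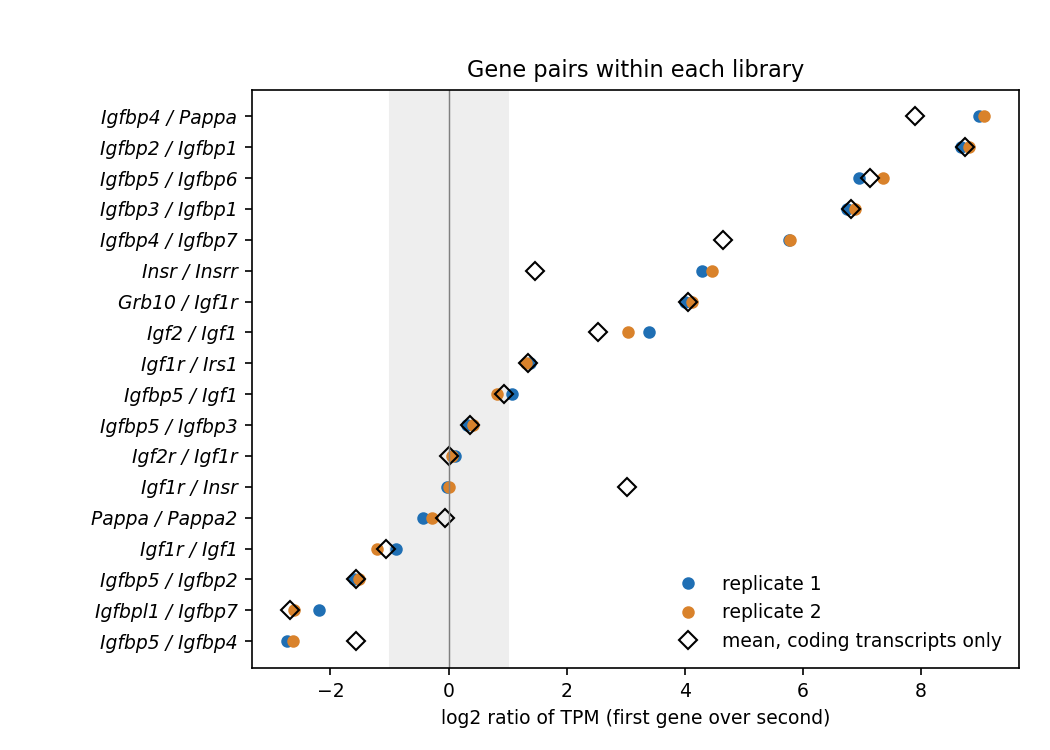
log2 ratio of TPM for 18 gene pairs, first gene over second, in replicate 1 (blue) and replicate 2 (orange), with the mean over coding transcripts as open diamonds. The grey band spans -1 to 1. The diamond of Igf1r over Insr lies at 3.03, away from points near 0, and those of Igf2 over Igf1 and of the other pairs with Insr or Igfbp4 also lie apart from their mean by more than 0.5.

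Other genes of the pathway were taken from lists chosen for their roles. Of 57 such genes, 49 had at least 1 TPM in each library and 28 had at least 10 TPM. Over all protein-coding genes, 61.8% had at least 1 TPM in each library and 41.7% at least 10 TPM. Among the other ligands and receptors, Igf2 and Igf2r were highest, Ins1 had 0 reads in both libraries and Ins2 had 1 read in replicate 2 and 0 in replicate 1. Of 10 receptor substrates and adaptors, 9 reached 10 TPM in both libraries. Grb10 led with 504 ± 30.1 TPM, followed by Grb2 (94.0 ± 2.45), and Grb14 (10.4 ± 0.48) and Irs4 (1.25 ± 0.11) were lowest. Irs2 had 14.3 ± 0.13 TPM beside 11.9 ± 0.35 for Irs1. Of 8 proteases of binding proteins and inhibitors of those proteases, 1 reached 10 TPM in both libraries. Adam9 (20.5 ± 1.84 TPM) and Htra1 (11.6 ± 2.74) were highest, and Pappa (1.5 ± 0.08) and the PAPP-A inhibitor Stc2 (1.39 ± 0.12) lowest. Of 10 relatives of the binding proteins, 2 reached 10 TPM in both libraries. Ccn1 (49.8 ± 3.95 TPM) and Ccn4 (16.0 ± 0.66) led, and Igfals, which encodes the subunit that joins IGFBP3 in adult blood, was at 0.14 ± 0.05 TPM.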

How the data were processed

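RNA was measured in 2 libraries of the facial prominence at embryonic day 12.5. The build is mm10 and the annotation GENCODE M4, per the submitters' deposited notes; which aligner and quantifier were run is not given in the sources used here. Per the file headers, the deposited expected counts are estimated reads per gene or transcript, the deposited TPM and FPKM values are scaled by effective length and depth, and the deposited percent values give each transcript's share of its gene. The credibility intervals are the authors' own, at an unstated level. The deposited TPM can lie above its interval. For Igfbp4 in replicate 1 it did (788 TPM, interval 751 to 786 TPM), while the posterior mean TPM (768) lay inside. Spike-ins are inside the TPM total. Of 43346 mouse gene IDs, 42462 matched GENCODE M21 (GRCm38), which gave names, types and coordinates. The members and lists were chosen with earlier results of these data known. All 10 members are named, with their partners in the gene pairs and the highest and lowest genes of each pathway list. A count of 0 allows up to 3 reads, or 0.172 TPM in replicate 1 and 0.121 TPM in replicate 2 at an effective length of 1000 bases; limits cover counting error only. Pairs were compared as log2 ratios of TPM without a pseudocount. Alternatives were FPKM, posterior mean TPM, other pseudocounts and counts without division by length. Others were TPM rescaled over the IDs matched to GENCODE M21, TMM factors on rounded counts and each library alone. That rescaling leaves out spike-ins, tRNA entries and the 884 unmatched mouse gene IDs. Coding transcripts only, and the alternatives for the order of levels, were added after seeing the data. Python 3.11.15, numpy 2.4.6, pandas 2.3.3, scipy 1.17.1, matplotlib 3.10.9, R 4.3.3 and edgeR 4.0.16 (TMM factors) were used.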

Additional observations from a re-analysis of the deposited data

How the results depend on the processing

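All 18 pair ratios kept their call with the posterior mean TPM, FPKM, a pseudocount of 1 TPM and without replicate 1, although Igf1r over Insr, near 0, had the other sign without replicate 1 (0.0043). Without replicate 2, Igf1r over Igf1 was -0.90, under the threshold, and Igfbp5 over Igf1 was 1.07, past it; without replicate 1 these were -1.21 and 0.83. In counts not divided by length, Igf2r over Igf1r (1.01), Igfbp5 over Igfbp3 (1.73) and Igfbp5 over Igf1 (1.28) passed the threshold, Igf1r over Irs1 (0.30) lost it, and Igfbp5 over Igfbp2 (0.73) changed sign, since long genes take more reads per molecule; Igf1r over Insr (0.80) and Pappa over Pappa2 (0.14) also changed sign there without being called. With protein-coding transcripts only, Igf1r over Insr went past the threshold at 3.03, because that setting leaves out Insr-202, and the other 17 pairs kept their call, with the uncalled Igf2r over Igf1r at 0 within rounding. The ratio of the binding-protein pool to the ligands was 2.23 there. The number of called pairs was 13 or 14 under each alternative. With coding transcripts only, 7 genes rather than 8 reached 10 TPM in both libraries. The library difference of Igf1 was 0.31 to 0.32 on the log2 scale under each scaling tried. No paired analysis was possible because the series has 1 group. Counts of 17 to 28 reads limit Igfbp1 and Igfbp6, and reads in shared exons limit the transcript splits of Insr and Igfbp4.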

Other observations

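Genes of the growth hormone axis, which drives Igf1 in the liver after birth, were split. The receptor Ghr had 36.02 TPM in replicate 1 and 36.5 TPM in replicate 2, and Socs2, a feedback inhibitor of that receptor, had 58.0 and 59.9 TPM. Gh itself had 0 reads in both libraries, and Ghrhr had 1 read in replicate 1 and 0 in replicate 2. Of the 7 genes of this axis, 3 reached 10 TPM in both libraries, beside 41.7% of all protein-coding genes.

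All 17 genes of the kinase cascade below the receptors reached 1 TPM in both libraries and 11 reached 10 TPM. Of all protein-coding genes, 61.8% and 41.7% did. Akt1, a kinase that carries the growth signal, had 127 TPM in replicate 1 and 81.4 TPM in replicate 2, a log2 difference of -0.63, while Akt2 had 95.2 and 94.2 TPM. Foxo4 (2.49 ± 0.48 TPM) and Pik3cb (1.80 ± 0.31) were lowest. Among the 57 pathway genes, Akt1 and the protease gene Htra3 (2.87 and 4.53 TPM) were the only ones past a log2 difference of 0.5 between the libraries. Igf1os, an antisense gene that overlaps Igf1 but shares no exon base with it, had 0.25 TPM in replicate 1 and 0.34 TPM in replicate 2.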
